A study of Mus musculus with 6 samples.

Results

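The genes described here are 10 genes of cytokine signalling through Janus kinases (JAKs) and STAT transcription factors: the feedback inhibitors *Socs1*, *Socs2*, *Socs3*, and *Cish*, the STAT factors *Stat3*, *Stat5a*, *Stat5b*, and *Stat6*, and the kinases *Jak1* and *Jak3*. They were named by symbol, matched to the Ensembl identifiers of the count table, and make up 10 of its 47643 genes. All 10 were found and all 10 passed the filter of at least 10 reads summed over the samples, as did 11877 genes in all.

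CD4+ T cells were taken from the spleens of Tg4 *Nr4a3*-Tocky Tiger mice, which carry a transgenic T cell receptor for a myelin basic protein (MBP) peptide, a Timer reporter driven by *Nr4a3* that changes from Blue to Red fluorescence as it matures, and a GFP reporter of *Il10*. Every mouse received 80 μg of 4Y MBP peptide under the skin, an antibody into the peritoneum 24 h later, and a second peptide dose of 8 μg after another 30 min. Spleens were taken 4 h after the second dose, and cells positive for both Timer colors (Blue+Red+) were sorted. The antibody, 800 μg in each group, was an isotype control, anti-PD1 (clone 29F.1A12), or anti-Lag3 (a clone spelled CB97W in the labels and C9B7W in the paper), with 2 samples each, called biological duplicates. The isotype group is thus a group of re-challenged, T cell receptor-stimulated cells and not of resting cells, and all mice were of the line with 1 transgenic receptor specificity. A further replicate batch was set aside by the authors and is not used here.

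Cytokine receptors of T cells carry JAKs, which phosphorylate the receptor and the STAT proteins that dock on it. Phosphorylated STATs move to the nucleus and switch on their targets, and the SOCS genes are among these targets: SOCS1 and SOCS3 bind receptors and JAKs and stop the kinases, and CIS, the protein of *Cish*, and SOCS2 bind phosphorylated receptor sites. In CD4+ T cells STAT5 is best known for signals of IL-2 and IL-7, STAT3 for IL-6, IL-21, and IL-23, STAT6 for IL-4, and STAT4 for IL-12. The values here are RNA levels, and phosphorylation of these proteins, through which they act, was not measured.

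The main pattern concerned the STAT genes. *Stat3* and *Stat5a* were higher after anti-PD1 than after isotype, by 1.56-fold and 1.81-fold, and were the only members called in that comparison (adjusted p under 0.05, a call made for 0.901% of all genes tested). *Stat5b*, *Stat6*, *Jak1*, and *Jak3* differed by 1.15-fold or less in the fit. *Socs1* and *Socs3* were higher in all 4 antibody samples than in both isotype samples, as were 7.89% of all genes, but did not pass the threshold. No member was called between anti-Lag3 and isotype, where 0.0421% of all genes were. The plot of levels shows each sample.

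**Figure D1:**
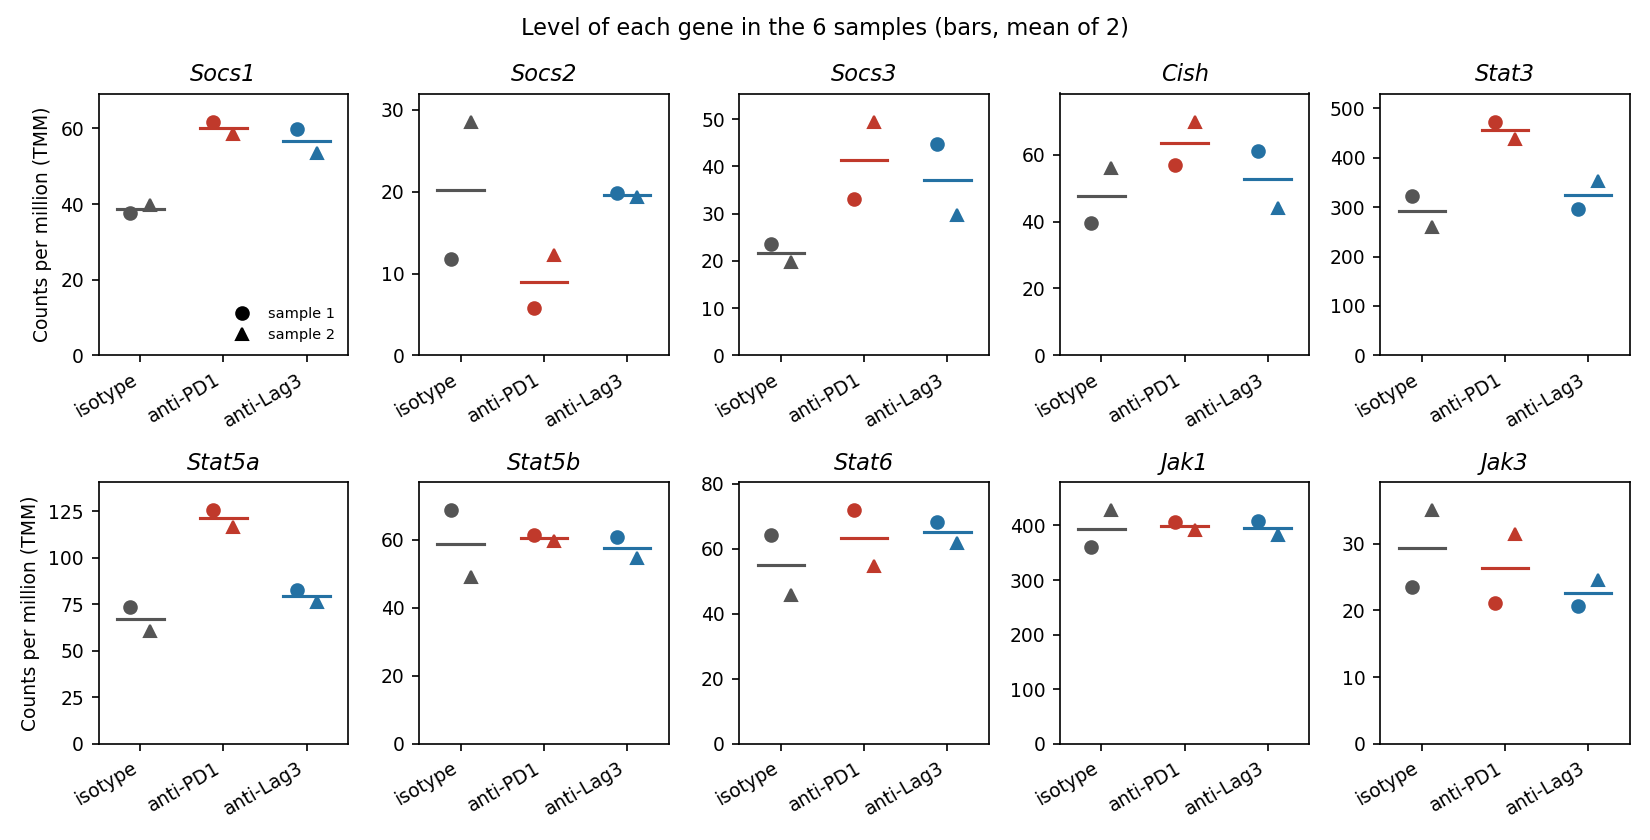
Level of the 10 genes in each sample, as counts relative to the TMM-scaled library total (CPM), on axes that start at 0. Circles and triangles are samples 1 and 2 of a group and the short bars their mean. *Stat3* and *Stat5a* lie above all other samples in both anti-PD1 samples, *Socs1* lies between 53.5 and 61.8 CPM in the 4 antibody samples against 37.7 and 39.8 CPM in isotype, and *Socs2* spreads widely within isotype.

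Short stretches near the start of 3 members were read for a sequence feature. The genes were chosen by symbol, but the inhibitors are known as STAT targets, so a STAT motif in them is not independent of that choice. Among the DNA sites that STAT dimers bind are those of the form TTCNNNGAA, which reads the same on both strands. Other forms of site were not searched. In the RefSeq promoter windows (GRCm38.p6, 250 bases before and 50 after a start site) 9 of the 10 members had an entry, in 11 windows. *Socs2* was not matched. The motif was found in *Cish*, with 2 matches, and in *Socs3*, with 1, and in 8.30% of all 32851 windows, with 2 or more matches in 0.457%. The windows of the other 7 genes, *Stat3* and *Stat5a* among them, held no match. The stretches below hold the matches of the inhibitors *Cish* and *Socs3*, with the motif in capitals, and the 120 bases before the start of *Stat3*, the member called in both comparisons with anti-PD1 samples.

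Cish: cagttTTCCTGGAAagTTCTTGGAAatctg
Socs3: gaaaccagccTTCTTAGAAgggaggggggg
Stat3: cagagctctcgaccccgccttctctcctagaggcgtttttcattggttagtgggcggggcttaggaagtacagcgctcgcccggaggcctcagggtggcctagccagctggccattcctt

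The *Cish* stretch lies at chr9:107296654-107296683 on the plus strand, with its first match starting on the RefSeq start base, counted as base 1, and the second on base 12. The *Socs3* stretch lies at chr11:117969501-117969530 on the minus strand, with its match starting 154 bases before the RefSeq start. The GENCODE positions of *Cish* and *Socs3* given below begin further upstream, so both stretches lie inside those gene spans. The *Stat3* stretch is chr11:100939541-100939660 on the minus strand. A match is a string of letters and was not shown to be bound in these cells.

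Total counts ran from 2107715 to 2648920 per sample, so that 3 reads in a sample were worth 1.11 to 1.44 CPM. The members spanned 12 reads, for *Socs2* in anti-PD1 sample 1, to 1071 reads, for *Stat3* in anti-PD1 sample 2. The libraries were made from the 3′ ends of transcripts, so that a transcript gives about 1 read and counts were not divided by length. T cell genes were present in every library, with *Cd4* at 131 to 190 CPM and *Cd3e* at 131 to 193 CPM. The 12 T cell markers summed to 3133 and 3285 CPM in isotype, 2953 and 3094 CPM with anti-PD1, and 3335 and 3110 CPM with anti-Lag3. Between anti-PD1 and isotype, 6 of the 12 were lower without overlap and 1 was higher, beside 18.2% and 19.2% of all genes. Only *Cd5* was called, as higher with anti-PD1 (log2 1.01, SE 0.19). Markers of other cells were low but differed between groups. The 10 B cell markers summed to 141 and 153 CPM in isotype, 71.4 and 67.1 CPM with anti-PD1, and 91.1 and 134 CPM with anti-Lag3, and *Cd79a* was at 0 in all 6 samples. Of the 9 tested between anti-PD1 and isotype, *Igkc* (log2 -2.51, SE 0.48) and *Ighm* (-0.89, SE 0.20) were called as lower, beside 0.269% of all genes. Of these 9, 8 had a negative log2 fold change and 1 a positive one. The 11 macrophage markers summed to 93.8 and 68.8 CPM in isotype, 27.3 and 45.8 CPM with anti-PD1, and 46.4 and 48.7 CPM with anti-Lag3. Between anti-PD1 and isotype, *C1qa* was called as lower (log2 -2.59, SE 0.64). Of the 11, 9 had a negative log2 fold change and 2 a positive one. The 2 CD8 T cell markers summed to 54.7 and 48.3 CPM in isotype, 34.5 and 29.8 CPM with anti-PD1, and 33.7 and 32.7 CPM with anti-Lag3, so that both isotype samples lay above the other 4. The 5 erythroid markers summed to 50.4 and 44.7 CPM in isotype, 18.7 and 45.8 CPM with anti-PD1, and 21.9 and 50.5 CPM with anti-Lag3, with all groups overlapping. NK cell markers summed to at most 3.8 CPM and dendritic cell markers to at most 1.9 CPM, with 2 genes of each list of 5 at 0 in every sample. The part of such cells in the results below was not tested. In bulk samples, fewer cells that express a gene and less RNA per cell cannot be told apart.

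Of the feedback inhibitors, *Socs1* (ENSMUSG00000038037, chr16:10782240-10785536, minus strand in GENCODE on GRCm38) had the smallest biological coefficient of variation in the fit among the 4, 11.1%. Its level was 37.7 and 39.8 CPM in isotype, 61.8 and 58.5 CPM with anti-PD1, and 59.9 and 53.5 CPM with anti-Lag3. The antibody groups overlapped each other, and neither overlapped isotype. The fold over isotype was 1.55 with anti-PD1 (log2 0.63, SE 0.20, n = 2 per group) and 1.46 with anti-Lag3 (log2 0.54, SE 0.20), with adjusted p of 0.181 and 0.690 by edgeR's quasi-likelihood test over all genes tested. Neither passed 0.05. Between the 2 antibodies the log2 difference was 0.09, with a 95% interval of -0.31 to 0.48. The comparisons with isotype share its 2 samples and are not independent of each other.

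*Socs3* (ENSMUSG00000053113, chr11:117966079-117970047, minus strand), the inhibitor best known for limiting STAT3 signals through gp130, had 23.6 and 19.7 CPM in isotype, 33.1 and 49.5 CPM with anti-PD1, and 44.7 and 29.7 CPM with anti-Lag3. All 4 antibody samples lay above isotype, and they spread more widely than the isotype samples. The log2 fold change was 0.94 (SE 0.27, adjusted p = 0.0915) with anti-PD1 and 0.78 (SE 0.27, adjusted p = 0.667) with anti-Lag3. The first passed the threshold when every gene with at least 1 read was tested (adjusted p = 0.0480) and without anti-Lag3 sample 2 (0.0448). The difference between the antibodies was 0.16 on the log2 scale, with an interval of -0.35 to 0.67.

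*Socs2* (ENSMUSG00000020027, chr10:95385362-95417180, minus strand) was the least abundant member and the most variable. It had 11.8 and 28.6 CPM in isotype, 5.75 and 12.3 CPM with anti-PD1, and 19.8 and 19.3 CPM with anti-Lag3. The anti-PD1 samples lay below both anti-Lag3 samples but overlapped isotype, whose samples were 25 and 71 reads. The log2 fold change was -1.15 (SE 0.40, adjusted p = 0.243) against isotype and -1.09 (SE 0.40, adjusted p = 0.487) against anti-Lag3. With a sample left out the first ran from -1.82 to -0.36. It was -1.63 with an adjusted p of 0.0318 without isotype sample 1, and -0.36 with an adjusted p of 0.944 without isotype sample 2, so the call rested on which isotype sample was kept. It was -0.73 without anti-PD1 sample 1 and -1.82 without anti-PD1 sample 2, and neither was called. The value between anti-Lag3 and isotype was -0.06 (SE 0.36).

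*Cish* (ENSMUSG00000032578, chr9:107296026-107302784, plus strand), a STAT5 target that restrains IL-2 and T cell receptor signals, had 39.6 and 55.9 CPM in isotype, 57.0 and 69.9 CPM with anti-PD1, and 61.1 and 44.2 CPM with anti-Lag3. Both anti-PD1 samples were above isotype, by about 1 CPM at the closest, and the anti-Lag3 samples overlapped both other groups. Its log2 fold change was 0.41 (SE 0.21, adjusted p = 0.658) with anti-PD1 and 0.13 (SE 0.21, adjusted p = 0.967) with anti-Lag3. As a description, the group means ran in the order anti-PD1, anti-Lag3, isotype for *Socs1*, *Socs3*, and *Cish* and in the opposite order for *Socs2*. None of the 4 was called in any comparison, differences between their profiles were not tested, and the order of neighboring groups turned when single samples were left out.

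Of the 4 STAT members, *Stat3* (ENSMUSG00000004040, chr11:100885098-100939540, minus strand) was the most abundant. It had 323 and 260 CPM in isotype, 473 and 438 CPM with anti-PD1, and 296 and 352 CPM with anti-Lag3. Both anti-PD1 samples stood above the other 4, and isotype and anti-Lag3 overlapped. Against isotype the log2 fold change with anti-PD1 was 0.65 (SE 0.12, adjusted p = 0.000626). Against anti-Lag3 it was 0.49 (SE 0.11, adjusted p = 0.0420), and anti-Lag3 differed from isotype by 0.16 (interval -0.08 to 0.39). On the authors' rlog scale (log2, with low counts shrunken) *Stat3* was at 9.60 and 9.36 in isotype, 10.01 and 9.92 with anti-PD1, and 9.50 and 9.68 with anti-Lag3.

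*Stat5a* (ENSMUSG00000004043, chr11:100859351-100885169, plus strand), which encodes 1 of the 2 STAT5 proteins, had 73.5 and 60.8 CPM in isotype, 126 and 117 CPM with anti-PD1, and 82.7 and 76.1 CPM with anti-Lag3. No pair of groups overlapped, in the order anti-PD1, anti-Lag3, isotype. The log2 fold change with anti-PD1 was 0.85 (SE 0.16, adjusted p = 0.00164) against isotype and 0.61 (SE 0.16, adjusted p = 0.108) against anti-Lag3. The second and the step from isotype to anti-Lag3 (0.24, interval -0.10 to 0.59) did not pass the threshold.

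These calls were lost when some single libraries were left out, which leaves a group with 1 sample. Without isotype sample 2 the adjusted p of both genes was 0.144, with log2 fold changes of 0.49 for *Stat3* and 0.72 for *Stat5a*, and without anti-PD1 sample 1 it was 0.0773 and 0.0833, with 0.59 and 0.80. The call of *Stat3* between the antibodies was also lost without either anti-PD1 sample or anti-Lag3 sample 1 (adjusted p 0.659, 0.452, and 0.261), and with DESeq2 (0.0647).

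*Stat5b* (ENSMUSG00000020919, chr11:100780731-100850724, minus strand), the other STAT5 gene, had 68.8 and 49.1 CPM in isotype, 61.3 and 59.7 CPM with anti-PD1, and 60.7 and 54.6 CPM with anti-Lag3. The isotype samples enclosed all the others. The log2 fold change with anti-PD1 was 0.04, with an interval of -0.35 to 0.44, which does not reach the fitted value of *Stat5a*. *Stat6* (ENSMUSG00000002147, chr10:127642986-127660957, plus strand), the factor of IL-4 signals, had 64.1 and 45.9 CPM in isotype, 71.9 and 54.8 CPM with anti-PD1, and 68.3 and 61.7 CPM with anti-Lag3. All its groups overlapped, and its log2 fold change was 0.21 (interval -0.20 to 0.61) with anti-PD1 and 0.25 (interval -0.15 to 0.65) with anti-Lag3.

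The paralogs *Stat5a* and *Stat5b* could be compared within a library, where depth and scaling drop out. *Stat5a* gave 51.7% and 55.3% of the reads of the pair in isotype (156 of 302 and 151 of 273), 67.2% and 66.1% with anti-PD1 (262 of 390 and 285 of 431), and 57.6% and 58.2% with anti-Lag3 (196 of 340 and 205 of 352). The groups did not overlap. The 95% Wilson intervals, which cover counting error only, ran from 46.0 to 61.1% over the isotype samples and from 61.5 to 71.7% over the anti-PD1 samples. Over the anti-Lag3 samples they ran from 52.3 to 63.3% and overlapped those of both other groups. The mean share was 13.2 percentage points higher with anti-PD1 than with isotype and 8.71 points higher than with anti-Lag3, and an exact permutation test gave a two-sided p of 0.333, the smallest that 2 samples against 2 allow. In the fit the log2 effect of anti-PD1 on *Stat5a* was larger than that on *Stat5b* by 0.81 (SE 0.26, with the errors of the 2 genes taken as independent). The last 500 bases of the longest coding transcripts of the pair share no identical run longer than 7 bases, and neither tail shares a run over 11 bases with the whole transcript of the other.

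**Figure D2:**
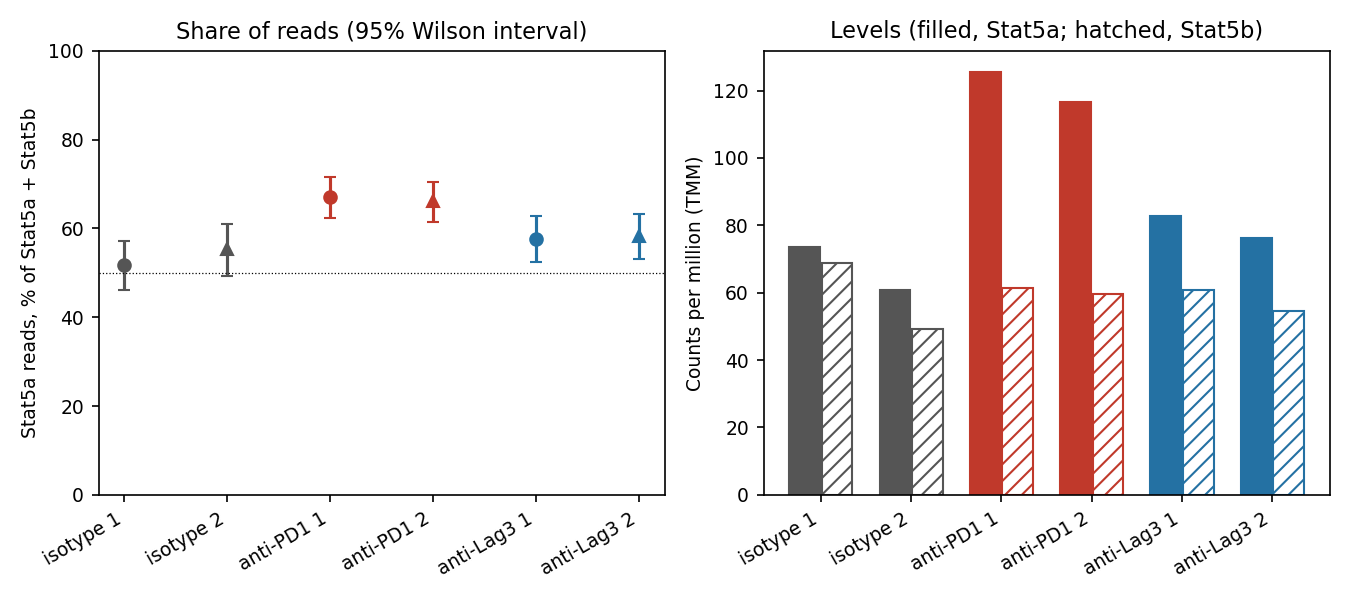
*Stat5a* reads as a percentage of *Stat5a* plus *Stat5b* reads in each sample with 95% Wilson intervals (left), and the levels of both genes in CPM (right, filled bars for *Stat5a* and hatched bars for *Stat5b*, axis from 0). The anti-PD1 samples stand at 67.2% and 66.1%, above the other 4 samples, which run from 51.7% to 58.2%, and the hatched bars stay between 49.1 and 68.8 CPM.

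*Stat5b*, *Stat5a*, and *Stat3* lie next to each other within 158810 bases of chromosome 11. The facing starts of *Stat5b* and *Stat5a* have 8626 bases between them and the genes run away from each other, whereas *Stat5a* and *Stat3* run toward each other and their 3′ ends overlap by 72 bases on opposite strands. All 72 lie in the last 500 exonic bases of each gene, where 3′ libraries place their reads. The strand setting of the read counting is not given in the sources used here, so reads in those bases could not be assigned by strand here, and their part in the 2 counts was not tested. The neighbors *Stat5a* and *Stat3* were called and the neighbor *Stat5b* was not.

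Of the kinases, *Jak1* (ENSMUSG00000028530, chr4:101152367-101265282, minus strand), which serves the receptors of the common gamma chain, gp130, and interferons, was the most even member, with a biological coefficient of variation of 7.92%. It had 360 and 428 CPM in isotype, 407 and 391 CPM with anti-PD1, and 409 and 383 CPM with anti-Lag3. Isotype enclosed the other groups. The log2 fold change was 0.02 with anti-PD1 (interval -0.20 to 0.23) and 0.00 with anti-Lag3 (interval -0.21 to 0.22). *Jak3* (ENSMUSG00000031805, chr8:71676296-71690575, plus strand), the partner of the common gamma chain, had 23.6 and 35.0 CPM in isotype, 21.1 and 31.5 CPM with anti-PD1, and 20.7 and 24.5 CPM with anti-Lag3. Its groups overlapped, and its log2 fold changes of -0.16 (SE 0.28) and -0.38 (SE 0.29) did not pass the threshold. *Jak3* shares 404 of its last 500 exonic bases with *Insl3* on the same strand, and how reads there were counted is not given in the sources used here. *Insl3* had 0 reads in every sample, and whether reads of the shared bases are missing from the *Jak3* counts was not tested.

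Over the 10 members, 2 were called between anti-PD1 and isotype, both higher, where 0.631% of the 11877 genes tested were called as higher and 0.269% as lower. Between anti-Lag3 and isotype 0 of 10 were called by edgeR's quasi-likelihood test and 0 by DESeq2, and *Socs1* and *Socs3* had unadjusted p below 0.05, as did 5.96% of all genes. Between anti-PD1 and anti-Lag3, *Stat3* was called, against 0.303% of all genes. A test of any difference among the 3 groups passed for *Stat3* (adjusted p = 0.00106) and *Stat5a* (0.00357), against 0.859% of all genes. These counts are small, and leaving out single libraries changed those of members above 0.

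Counts of groups that did not overlap were less selective. With 2 samples against 2, 5 members (*Socs1*, *Socs3*, *Cish*, *Stat3*, and *Stat5a*) were higher in both anti-PD1 samples than in both isotype samples and 0 were lower, where 19.2% of all genes were higher and 18.2% lower. With anti-Lag3, 3 members (*Socs1*, *Socs3*, and *Stat5a*) were higher and 0 lower, against 17.3% in each direction. The same 3 were higher in all 4 antibody samples than in both isotype samples, as were 7.89% of all genes. Between the antibodies 2 members were higher with anti-PD1 (*Stat3* and *Stat5a*) and 1 lower (*Socs2*), against 18.2% and 17.7%.

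**Figure D3:**
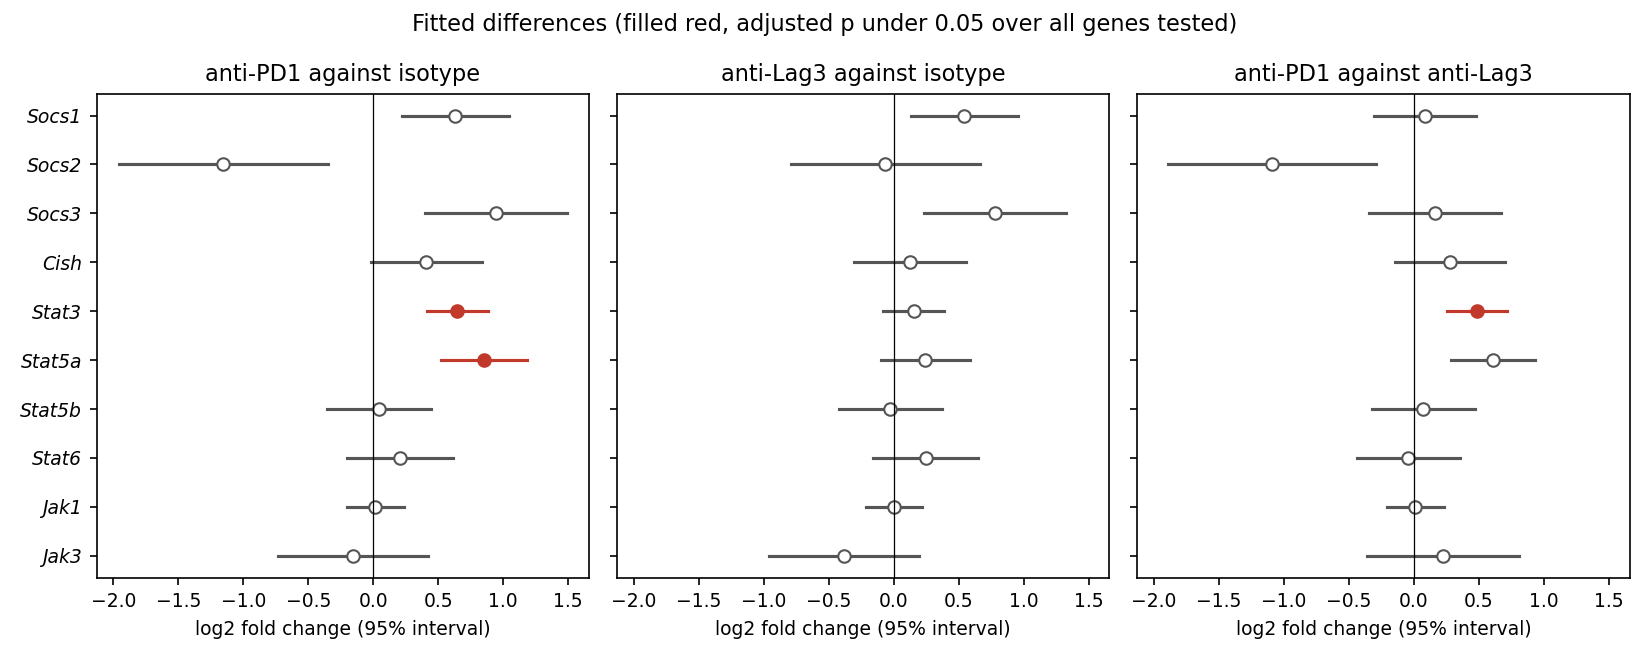
Fitted log2 fold changes of the 10 genes with 95% intervals in the 3 comparisons. Filled red points have an adjusted p under 0.05 over all genes tested. *Stat3* (0.65) and *Stat5a* (0.85) are filled between anti-PD1 and isotype, *Stat3* (0.49) between anti-PD1 and anti-Lag3, and none between anti-Lag3 and isotype.

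The rest of the pathway was read from lists chosen by textbook role, with earlier results of these data known, so their counts are not independent evidence. Among the 2 other JAKs, *Jak2*, a kinase of the IL-12 and IL-23 receptors, had 55.1 and 55.9 CPM in isotype, 112 and 106 CPM with anti-PD1, and 68.3 and 54.6 CPM with anti-Lag3. It was higher with anti-PD1 than with isotype (log2 0.97, SE 0.18, adjusted p = 0.000705) and than with anti-Lag3 (0.83, SE 0.17, adjusted p = 0.0127). The first was called under all 16 alternatives, and the second was lost without anti-PD1 sample 1 or 2 or anti-Lag3 sample 2 (adjusted p 0.339, 0.318, and 0.379). *Tyk2*, its partner at those receptors, was not called and lay between 11.98 and 20.2 CPM.

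Among 2 other STAT genes, *Stat4*, the factor of IL-12 signals, had 73.0 and 47.1 CPM in isotype, 121 and 107 CPM with anti-PD1, and 62.0 and 80.6 CPM with anti-Lag3. Its log2 fold change against isotype was 0.93 (SE 0.19, adjusted p = 0.00243), lost without isotype sample 2 (0.305) or anti-PD1 sample 1 (0.149). *Stat2* lay between 18.9 and 31.9 CPM and was not called.

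The 4 other SOCS genes were not called in any comparison: *Socs4* lay between 33.1 and 50.4 CPM, *Socs6* between 18.6 and 27.1 CPM, *Socs7* between 26.6 and 56.1 CPM, and *Socs5* between 2.36 and 3.80 CPM, with 5 to 9 reads a sample. The reads of all 8 SOCS family genes came to 220 and 250 CPM in isotype, 274.6 and 290 CPM with anti-PD1, and 289 and 260 CPM with anti-Lag3. Of 10 other inhibitors, phosphatases and PIAS proteins among them, 1 was called, as lower between anti-PD1 and isotype, beside 0.269% of all genes. *Ptpn6*, which encodes the phosphatase SHP-1, had 228 and 220 CPM in isotype, 123 and 106 CPM with anti-PD1, and 159 and 192 CPM with anti-Lag3. It was lower with anti-PD1 than with isotype (log2 -0.97, SE 0.14, adjusted p = 1.41e-05, under all 16 alternatives) and than with anti-Lag3 (-0.62, SE 0.14, adjusted p = 0.0248, lost without either anti-PD1 sample or anti-Lag3 sample 2 and, at 0.0536, with edgeR's newer method).

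Of 22 cytokine receptor genes, 19 passed the filter and 2 were called as higher between anti-PD1 and isotype, beside 0.631% of all genes. *Il12rb2*, the signalling chain of the IL-12 receptor, had 17.4 and 12.9 CPM in isotype, 100 and 109 CPM with anti-PD1, and 43.0 and 28.6 CPM with anti-Lag3. Its log2 fold change with anti-PD1 was 2.80 (SE 0.24, adjusted p = 1.55e-10) against isotype and 1.56 (SE 0.21, adjusted p = 2.49e-05) against anti-Lag3, and with anti-Lag3 1.24 (SE 0.26, adjusted p = 0.0497) against isotype. The first 2 held under all 16 alternatives and the last under 4, and it was lost without isotype sample 2, either anti-PD1 sample, or anti-Lag3 sample 1. *Il23r* had 16.5 and 6.44 CPM in isotype, 70.0 and 57.2 CPM with anti-PD1, and 24.0 and 10.4 CPM with anti-Lag3. It was higher with anti-PD1 than with isotype (2.496, SE 0.33, adjusted p = 3.10e-06) and than with anti-Lag3 (1.90, SE 0.31, adjusted p = 0.000676, lost without either anti-PD1 sample). Against isotype the value was 3.29 without isotype sample 1 and 1.94 without isotype sample 2, and against anti-Lag3 2.61 and 1.39 without its sample 1 and sample 2, and all 4 were called. The medians of the 19 receptors, -0.03 with anti-PD1 and 0.30 with anti-Lag3, stood beside 0.00 for all genes in each comparison.

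Of 16 cytokine genes, 7 passed the filter and 1 was called, as higher between anti-PD1 and isotype, beside 0.631% of all genes. *Il21*, whose receptor signals through JAK1, JAK3, and STAT3, had 16.0 and 8.45 CPM in isotype, 60.4 and 41.7 CPM with anti-PD1, and 30.4 and 26.7 CPM with anti-Lag3. Its log2 fold change with anti-PD1 was 2.07 (SE 0.30, adjusted p = 1.54e-05), and with anti-Lag3 1.24 (SE 0.31, adjusted p = 0.281).

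The list of 12 STAT3 target genes was also chosen with earlier results of these data known, so its counts are not independent evidence. Of the 12, 6 were called as higher between anti-PD1 and isotype and 0 as lower, beside 0.631% and 0.269% of all genes. The remaining 6 were not called, and 1 of the 12 had a negative log2 fold change. The called genes were *Il21* and *Il23r*, which also stand in the lists above, and *Ahr*, *Bcl3*, *Hif1a*, and *Rora*. The median log2 fold change of the 12 was 0.92 with anti-PD1 and 0.35 with anti-Lag3, beside 0.00 for all genes. *Rora*, a factor of IL-17-producing T cells, had the largest change of the 4 in units of its error, from 138 and 80.9 CPM in isotype to 301 and 267 CPM with anti-PD1, with 142 and 124 CPM for anti-Lag3. It was called against isotype (log2 1.39, SE 0.16, adjusted p = 9.16e-08) and against anti-Lag3 (1.10, SE 0.15, adjusted p = 3.33e-05). The log2 fold change against isotype was 0.70 (SE 0.11) for *Hif1a*, 1.42 (SE 0.29) for *Ahr*, and 1.13 (SE 0.24) for *Bcl3*. The last 2 were lost without anti-PD1 sample 1 (adjusted p 0.139 and 0.373), *Ahr* also without isotype sample 1 (0.0541) and *Bcl3* without isotype sample 2 (0.329).

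Of 17 STAT5 target genes, 2 were called as higher between anti-PD1 and isotype (*Il12rb2* and *Pim1*) and 1 as lower (*Pim2*). This stood beside 0.631% and 0.269% of all genes, and *Il12rb2* is also counted among the receptors above. The median log2 fold change of the 17 was 0.01, beside 0.00 for all genes. The paired kinases, which both promote survival and growth downstream of cytokines, went opposite ways: *Pim1* rose from 177 and 173 CPM in isotype to 265 and 273 CPM with anti-PD1 (log2 0.62, SE 0.12, adjusted p = 0.00207), and *Pim2* fell from 69.7 and 74.5 CPM to 41.2 and 38.0 CPM (log2 -0.87, SE 0.20, adjusted p = 0.0114). The anti-Lag3 samples had 220 and 196 CPM of *Pim1* and 62.8 and 78.0 CPM of *Pim2*. Both calls were lost without isotype sample 2 or either anti-PD1 sample. *Pim2* was also lower with anti-PD1 than with anti-Lag3 (-0.83, SE 0.20, adjusted p = 0.0420), held by 8 of 16 alternatives. Of 4 genes that STAT5 represses and 3 STAT6 targets, 0 were called in any comparison.

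**Figure D4:**
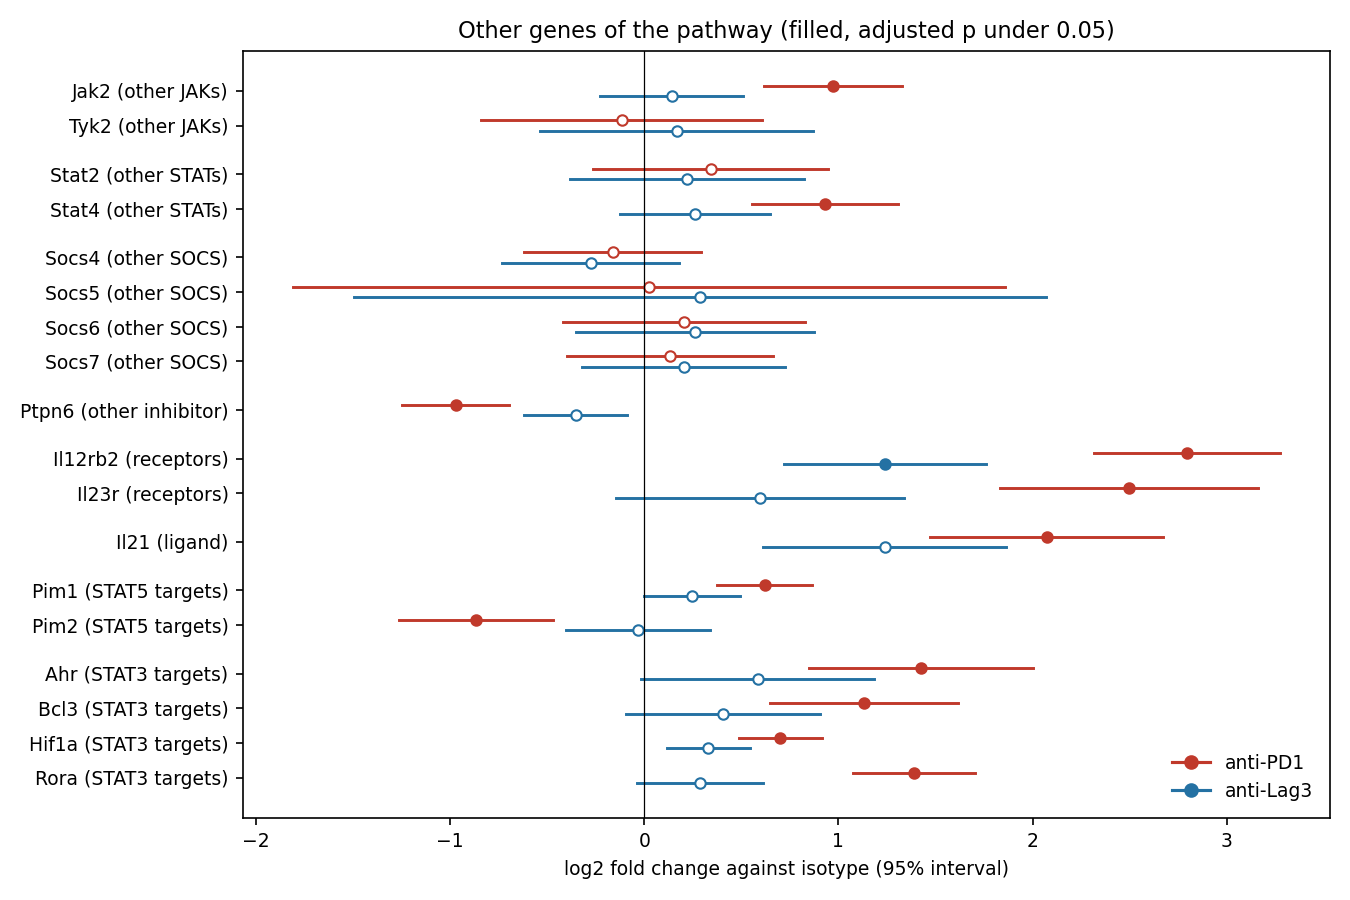
Fitted log2 fold changes against isotype, with 95% intervals, of other genes of the pathway: the further JAK, STAT, and SOCS genes described, and the genes of the further lists that were called in any comparison. Red is anti-PD1 and blue anti-Lag3, filled where the adjusted p was under 0.05. *Il12rb2* is filled for both antibodies (2.80 and 1.24), *Ptpn6* (-0.97) and *Pim2* (-0.87) lie to the left of 0 with anti-PD1, and the 4 other SOCS genes have open points near 0.

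The profiles of the 4 inhibitors over the 6 samples were compared with those of 5432 other genes of at least 20 CPM on average (5433 for *Socs2*), by the root mean square difference of log2 CPM after centering each gene on its mean. The nearest genes were *Mis18a*, *Tex2*, and *Ifnar2* for *Socs1*, at differences of 0.07 to 0.08 where *Socs1* itself ranged over 0.70. They were *Lztr1*, *Tnfrsf18*, and *Samhd1* for *Socs3*, at 0.06 to 0.17 of a range of 1.29, and *Maf*, *Slc25a46*, and *Tes* for *Cish*, at 0.08 of a range of 0.81. For *Socs2* they were *Lta*, *Izumo1r*, and *Rasgrp1*, at 0.27 to 0.29 of a range of 2.16, a looser likeness. No gene was among the nearest 3 of more than 1 inhibitor, and 6 samples give little to separate profiles by.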

How the data were processed

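Groups and replicate numbers came from the sample titles and labels. The authors made QuantSeq 3′ libraries, trimmed reads with Bbduk, aligned them to GRCm38 (mm10) with STAR 2.5.2a, and used HTSeq-count to assign reads to Ensembl genes. Deposited counts are raw whole numbers. Annotation release and strand setting are not given in the sources used here. The authors also deposited DESeq2 rlog values on a log2 scale for 11877 genes, used here for *Stat3* only.

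Genes with at least 10 reads over the 6 samples were fitted together in edgeR 4.0.16 (R 4.3.3; TMM, glmQLFit and glmQLFTest, legacy method), with Benjamini-Hochberg adjustment over all 11877 genes and a threshold of 0.05. CPM used TMM library sizes, and log2 CPM a prior count of 2. Intervals on folds are 95%. The fits were also run on simulated counts with a common dispersion for every gene and changes only in genes of at least 20 CPM. Such a run does not cover changes in genes of lower level or of another spread. Symbols and positions came from GENCODE M21 (47224 of 47643 identifiers named), promoters from RefSeq. All 10 members were named, and of the other lists the called genes and the SOCS, STAT, and JAK genes, apart from an item not reported here. Members and lists were chosen with earlier results of these data known. Alternatives were DESeq2 1.42.0, limma-voom 3.58.1, edgeR's newer method, other scalings, filters, and thresholds, single comparisons, a replicate block, leaving out abundant RNA, and leaving out each sample. Running them for called genes of the other lists was decided after the data were seen.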

Additional observations from a re-analysis of the deposited data

How the results depend on the processing

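Over the 30 log2 fold changes of members and 477 alternative values, 440 kept their direction and side of the threshold, 10 lost and 3 gained a call, and 24 changed sign, all 24 of values not called. Between anti-PD1 and isotype, *Stat3* and *Stat5a* were called under all 11 alternatives that kept the 6 samples or used the 4 of the comparison, and leaving out each sample gave 0 to 3 members called. Between anti-PD1 and anti-Lag3 the count of members fell from 1 to 0 with DESeq2, edgeR's newer method, and filterByExpr, and was 0 to 1 with a sample left out. Members differing among the 3 groups numbered 0 to 2 with a sample left out. A group left with 1 sample is assumed to vary like the others.

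Over all genes, the 107 calls between anti-PD1 and isotype became 166 at an adjusted p under 0.1 and 46 to 161 with a sample left out. The 5 between anti-Lag3 and isotype became 1 with DESeq2, 0 with edgeR's newer method, filterByExpr, or the 4 samples of the comparison, 20 with every gene of at least 1 read, 3 without *Gm42418* and mitochondrial rRNA, and 0 to 16 with a sample left out. The 36 between the antibodies became 16 with DESeq2, 58 with every gene of at least 1 read, and 3 to 49 with a sample left out. The cause was not tested.

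Leaving out samples turned the sign of values near 0, with these ranges of log2 fold change. Against isotype with anti-PD1 they were -0.19 to 0.30 for *Stat5b*, -0.023 to 0.46 for *Stat6*, -0.10 to 0.15 for *Jak1*, and -0.48 to 0.17 for *Jak3*. With anti-Lag3 they were -0.54 to 0.73 for *Socs2*, -0.12 to 0.40 for *Cish*, -0.26 to 0.24 for *Stat5b*, and -0.11 to 0.13 for *Jak1*. Between the antibodies they were -0.0038 to 0.17 for *Socs1*, -0.16 to 0.48 for *Socs3*, -0.014 to 0.15 for *Stat5b*, -0.25 to 0.15 for *Stat6*, -0.043 to 0.063 for *Jak1*, and -0.10 to 0.47 for *Jak3*. *Socs2* between anti-Lag3 and isotype was also 0.041 with limma-voom.

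With the replicate number as a block, *Socs2* between anti-Lag3 and isotype was 0.035 in place of -0.06, and no call of a member changed, with 144, 6, and 46 genes called in the 3 comparisons. Deviations of samples with the same number correlated at 0.05, 0.05, and -0.05 over 5433 genes, so the numbers were not taken to pair samples. The paper's methods say that the set-aside samples were handled as 1 batch, and whether the numbers of the 6 samples used here mark such batches is not given in the sources used here. *Socs2* was lower with anti-PD1 than with isotype among the samples numbered 1 (5.75 against 11.8 CPM) and among those numbered 2 (12.3 against 28.6 CPM), and with the block its log2 fold change was -1.14 (adjusted p = 0.175).

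Of called genes in the other lists, DESeq2 lost *Il23r* (adjusted p = 0.0523), *Bcl3* (0.0600), and *Pim2* (0.0739) against isotype with anti-PD1, and *Rora* (0.0969) and *Pim2* (0.146) between the antibodies. The SE of the log2 fold change with anti-PD1 was 0.40 for *Socs2*, with 12 to 71 reads a sample, 0.91 for *Socs5*, with 5 to 9 reads, and 0.12 for *Stat3*. At this depth and number of samples, even changes well above such errors could go uncalled, as did the -1.15 of *Socs2* against isotype.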
